A study of Rattus norvegicus with 12 samples.

Results

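The genes described here carry the names of the synaptic vesicle release machinery: the synaptotagmins (Syt), syntaxins (Stx), synaptobrevins (Vamp), SNAP proteins (Snap), complexins (Cplx), RIM proteins (Rims), syntaxin-binding proteins (Stxbp), Unc13 proteins, synapsins (Syn), synaptophysin (Syp) and SV2 proteins. They were taken by their names on the array, ignoring case and a suffix for predicted genes, as a family name followed by a digit or a letter from a to d, or as 1 of the 7 names Syn1, Syn2, Syn3, Syp, Sv2a, Sv2b and Sv2c. The brightest probe stood for each gene. The rule gave 67 of the 35561 gene names, and their signals were measured in the dorsal striatum of male rats, on 12 arrays in 4 groups of 3. All rats had received 9 µg of 6-OHDA, a toxin that destroys dopamine neurons, in the substantia nigra pars compacta of the left side. The 6-OHDA group carried the lesion only. HFS rats also had high-frequency stimulation of the subthalamic nucleus on the lesioned side, continuous over 5 days at 130 Hz, 60 µA and a pulse width of 80 µs. DOPA rats were given L-DOPA at 25 mg/kg with benserazide at 12.5 mg/kg, 2 injections per day for 19 days, and DOPA/HFS rats received both treatments. This L-DOPA regimen was chosen to induce dyskinesia. HFS and DOPA/HFS rats had a further anaesthesia and an electrode implanted, which the study does not describe for the other groups analysed here. Implantation and stimulation therefore cannot be told apart. The last L-DOPA injection came 12 h before death, while stimulated rats were killed as soon as the stimulation ended. Rats were kept only where the lesion and the electrode met the set criteria, and tissue punches were pooled within an animal. No rat without a lesion was analysed here, and strain and age are not given in the sources used here.

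At a nerve terminal, the SNARE proteins synaptobrevin on the vesicle and syntaxin-1 and SNAP-25 on the plasma membrane zip into a bundle that pulls the membranes together. Synaptotagmins bind calcium and trigger fusion, complexins clamp and then assist the bundle, and Munc13 (Unc13a) and RIM (Rims1) make vesicles ready for release. Synapsins tether the reserve vesicles, while synaptophysin and the SV2 proteins sit in the vesicle membrane. The mRNAs measured in striatal tissue come from cell bodies there, which are mostly GABAergic projection neurons and interneurons. The release machinery of axons that arrive from cortex, thalamus and midbrain is made from mRNA in those regions.

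Of the 67 genes, 58 passed the filter on dim probes, which asked for a signal well above background on at least 5 of the 12 arrays, and 51 of them did so on all 12. By role, 12 of 14 synaptotagmins, 22 of 23 genes of the SNARE families, 13 of 18 regulators and priming factors and 6 of 7 vesicle proteins passed. The other 5 genes passed too, but match by spelling only: Snapc1, Snapc2, Snapc3 and Snapc4, subunits of the complex that activates small nuclear RNA genes, and Snapap, now Snapin, a SNARE-associated protein. Among the genes counted with the SNARE families, Snap91 encodes the clathrin adaptor AP180. The 9 genes that did not pass were Cplx4, Rims3, Stx11 and Syt15, which were well above background on no array, and Rims4, Stxbp4, Syt7, Syn3 and Unc13b, on 1 to 3 arrays. All 17 genes taken here as the core of neuronal release passed. No probe was saturated. Stx1b2, Stxbp2, Sv2c and Syt10 had no value on DOPA/HFS replicate 3, where the scanner software marked 4175 spots as outliers against 2 to 25 on each other array, so 54 of the 58 genes were complete and the fits of these 4 used 11 arrays.

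Per array, between 50.5% and 63.2% of the spots were well above background, with the lowest share on DOPA replicate 3 and the shares of the HFS and DOPA/HFS arrays all at 60% or above. The 4 groups were spread evenly over 3 slides, but each group kept 1 position on the slides, so position and treatment cannot be told apart. The 9 tested markers of striatal projection neurons had a mean log2 signal of 13.89 to 14.33 on 11 arrays, and 13.78 on DOPA/HFS replicate 3, where Rgs9 had no value and the other 8 were averaged. The 7 tested markers of the choroid plexus, an epithelium of the ventricle, stood 0.62 to 3.95 above their own 12-array mean on the HFS arrays and 1.13 to 1.78 below it on the 6-OHDA arrays. They were at 2.08 on DOPA replicate 3 and below 0 on the other DOPA and DOPA/HFS arrays. In bulk tissue, fewer cells of a type and less RNA per cell cannot be told apart.

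Promoters are shown for 4 genes, Syt2 and Syt6 because they gave the lowest p under L-DOPA and under stimulation, and Syn1 and Vamp1 because they hold a cAMP response element. This element is bound by CREB, a transcription factor downstream of dopamine D1 receptors in striatal neurons. The sequences are the 250 bases before the start of each gene in RefSeq, on the rat assembly GRCr8, 5′ to 3′ and on the plus strand. They lie at chr13:48736872-48737121 (Syt2), chr2:193781226-193781475 (Syt6), chrX:3725495-3725744 (Syn1) and chr4:159698644-159698893 (Vamp1). Capitals mark TGACGTCA, the cAMP response element, and GGGCGG, the GC box bound by Sp1.
Syt2: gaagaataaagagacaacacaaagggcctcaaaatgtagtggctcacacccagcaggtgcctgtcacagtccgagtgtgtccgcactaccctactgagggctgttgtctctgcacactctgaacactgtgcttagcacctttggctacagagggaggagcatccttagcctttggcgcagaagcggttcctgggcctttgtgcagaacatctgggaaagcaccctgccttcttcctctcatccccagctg
Syt6: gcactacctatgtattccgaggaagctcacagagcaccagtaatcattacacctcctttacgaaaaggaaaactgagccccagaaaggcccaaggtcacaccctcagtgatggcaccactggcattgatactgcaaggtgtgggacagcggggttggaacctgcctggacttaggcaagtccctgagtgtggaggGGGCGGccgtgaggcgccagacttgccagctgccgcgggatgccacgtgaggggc
Syn1: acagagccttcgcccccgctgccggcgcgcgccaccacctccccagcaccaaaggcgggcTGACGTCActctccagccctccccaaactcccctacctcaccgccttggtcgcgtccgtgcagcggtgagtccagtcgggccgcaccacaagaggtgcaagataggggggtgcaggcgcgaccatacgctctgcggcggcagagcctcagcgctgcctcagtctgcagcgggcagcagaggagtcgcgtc
Vamp1: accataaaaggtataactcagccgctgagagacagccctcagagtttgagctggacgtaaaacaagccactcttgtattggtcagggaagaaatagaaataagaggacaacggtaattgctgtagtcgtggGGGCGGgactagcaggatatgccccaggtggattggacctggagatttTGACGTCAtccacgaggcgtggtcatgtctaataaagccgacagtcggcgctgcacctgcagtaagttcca
Windows of this length were found for 52 of the 67 genes. Some of these 52 genes, such as Rims3 and Stx11, did not pass the filter on dim probes. For the tested genes, 7273 windows were found, so many tested genes had none. Searched on both strands, TGACGTCA was in 2 of the 52, which is 3.85%, against 2.79% of the 7273 windows and 1.59% of 33469 windows. GGGCGG was in 33 of the 52, or 63.5%, against 57.8% of the 7273 windows and 30.5% of all windows. A match is a description of letters and not a binding site.

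With the groups compared by limma over all 20375 genes tested, none of the 58 release genes was called in any treatment. Genes were called at an adjusted p (Benjamini-Hochberg) below 0.1 if the fold was also over 1.2 or under 0.8. The background was as low, with 0% of all genes called in HFS, 0.00491% in DOPA, where the 1 gene was LOC304000, and 0% in DOPA/HFS. Against 6-OHDA, the lowest adjusted p of a release gene was 0.998 in HFS and 1 both in DOPA and in DOPA/HFS. This rule also missed large differences. All 7 tested choroid plexus markers were higher in HFS at an unadjusted p under 0.05 in limma, by a median of 3.48 log2 units. None of these markers was called, so a missing call is not evidence of no change. By other tests on these arrays, the study listed more genes in each treatment. The interaction, which asks whether HFS acted differently with L-DOPA, called 0% of all genes and no release gene. The comparison of the 6 arrays with L-DOPA against the 6 without called 0.00491%, that of the 6 arrays with HFS against the 6 without 0%, and the F test over the 3 treatments 0.00491%, and none of these held a release gene.

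At an unadjusted p under 0.05, 1 of the 58 genes (1.72%) stood out in HFS, against 2.35% of all genes. It was 1 of 58 in DOPA against 2.6%, and 1 of 58 in DOPA/HFS against 2.76%. The interaction gave 1 of 58 against 1.98%. Over 6 arrays against 6, the L-DOPA comparison gave 2 of 58 (3.45%) against 2.74% and the HFS comparison 2 of 58 against 4.36%, while the F test gave 2 of 58 against 2.82%. These shares lay near or under the background. No count of this size is a result about the release genes.

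The intervals set how large a change could have gone unseen. The median standard error of a log2 difference from 6-OHDA was 0.21 and the highest was 0.90, for Sv2b. The 95% interval lay within 1 log2 unit of no change, that is within a doubling or halving, for 52 of the 58 genes in the HFS comparison, 51 under DOPA and 49 under the combination. These are 89.7%, 87.9% and 84.5% of the release genes, against 78.6%, 81.0% and 78.2% of all genes tested. The measured differences ran from -0.38 to 0.44 for HFS, from -0.68 to 0.51 for DOPA and from -0.68 to 0.52 in DOPA/HFS.

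**Figure D1:**
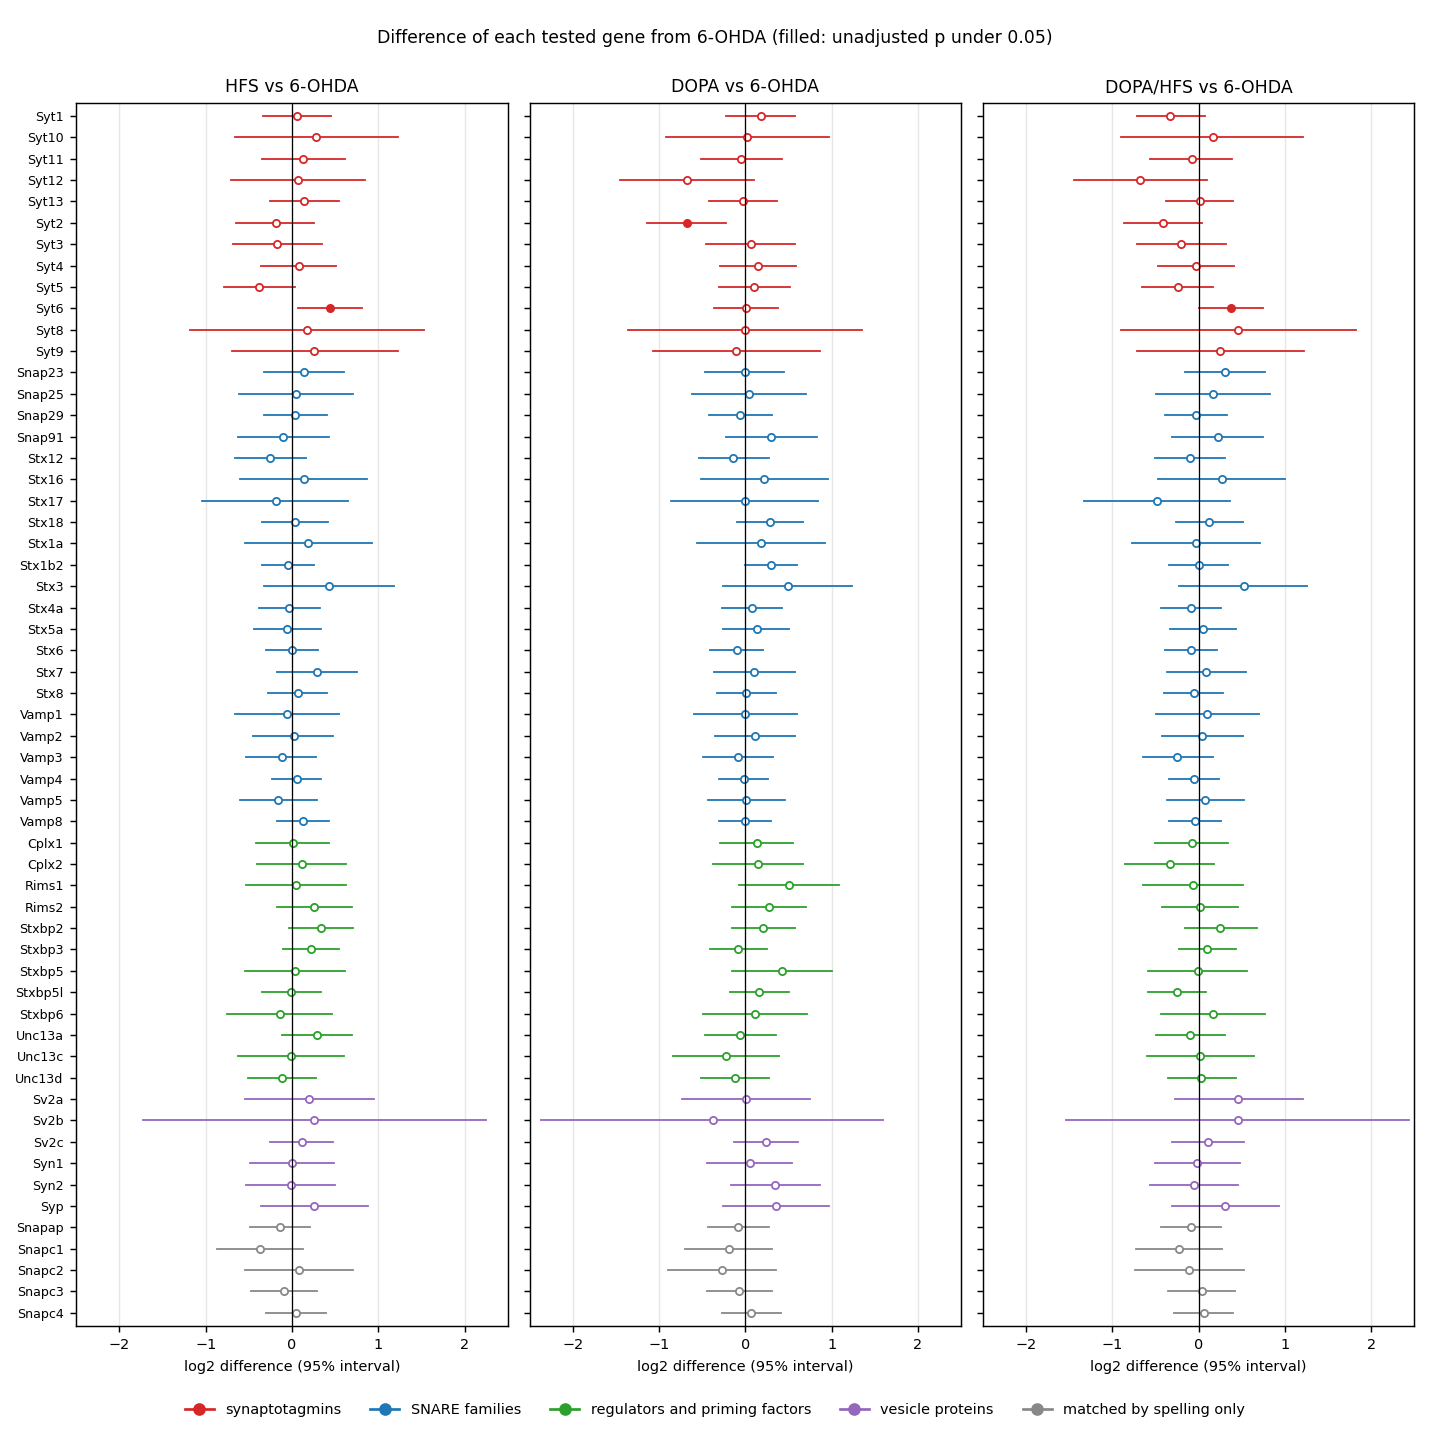
Log2 difference of 57 of the 58 tested genes from 6-OHDA (x axis, with 95% interval) in HFS, DOPA and DOPA/HFS, with genes on the y axis in colours by role and filled points for an unadjusted p under 0.05. Most points lie close to 0, and the filled points are Syt6 in HFS and DOPA/HFS and Syt2 in DOPA.

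Against 6-OHDA, the release genes as a group were centred near no change. The median log2 difference was 0.05 in HFS with 36 genes higher and 22 lower, 0.03 in DOPA with 35 higher and 23 lower, and 0.01 in DOPA/HFS with 30 higher and 28 lower. Over all genes tested the medians were 0.01, -0.01 and -0.01. In DOPA/HFS the split depended on the scaling. With each array scaled to its 75th percentile it was 13 higher and 45 lower (median -0.17), where the median of all genes moved to -0.18. The deposited table gave 16 higher and 42 lower (-0.14, against -0.12 over all genes), and keeping outlier spots 18 and 40 (-0.17, against -0.14). Without 6-OHDA replicate 2 the split in HFS turned to 24 higher and 34 lower, with a median of -0.03. The comparisons share their 6-OHDA arrays, so they are not independent of each other. By role, the 6 vesicle proteins had medians of 0.15, 0.14 and 0.21 in HFS, DOPA and DOPA/HFS, and the 13 regulators 0.03, 0.13 and 0.02. The 22 SNARE genes had 0.03, 0.02 and 0.02, and the 12 synaptotagmins 0.10, 0.00 and -0.06. The 17 core genes had 0.05, 0.13 and 0.00, with 12, 14 and 9 of them higher (70.6%, 82.4% and 52.9%). Of all genes tested, 51.5%, 47.7% and 47.6% were higher. In the interaction, 37 of the 58 genes (median -0.08) and 12 of the 17 core genes (-0.24) were lower. The median over all genes was -0.01. Without 6-OHDA replicate 2, the 58 genes had a median of -0.01 there. Genes read on the same arrays are not independent, and these splits were not tested.

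Among the core fusion genes, the groups mostly overlapped. Snap25, the SNARE of the plasma membrane that is cut by botulinum toxin A, had log2 signals of 14.89, 14.12 and 15.16 on the 6-OHDA arrays, 14.38, 14.66 and 15.28 in HFS, 14.78, 14.70 and 14.80 in DOPA and 15.33, 14.72 and 14.65 in DOPA/HFS. The groups overlapped, and the 6-OHDA arrays alone covered most of the range. Its differences were 0.05 in HFS (95% interval -0.61 to 0.71), 0.04 in DOPA (-0.62 to 0.70) and 0.17 in DOPA/HFS (-0.49 to 0.83). Vamp2, the main synaptobrevin of forebrain vesicles, had 13.72, 13.49 and 13.93 in 6-OHDA, 13.29, 13.81 and 14.09 in HFS, 13.75, 13.73 and 13.99 in DOPA and 13.98, 13.61 and 13.67 in DOPA/HFS. HFS replicates 1 and 3 were its lowest and highest arrays. Differences from 6-OHDA were 0.02, 0.11 and 0.04, with intervals that reached no further than 0.58 above 0 in DOPA.

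Stx1b2, the name on the array for syntaxin-1B, was the SNARE gene with the lowest p. It had 13.55, 13.75 and 13.78 in 6-OHDA, 13.52, 13.74 and 13.68 in HFS, 13.93, 14.06 and 13.99 in DOPA and 13.81 and 13.58 on the measured DOPA/HFS arrays. All 3 DOPA arrays lay above every other array. The difference in DOPA was 0.30 (95% interval -0.01 to 0.60, adjusted p = 1 in limma), and within slides 1 to 3 it was 0.37, 0.31 and 0.21. An exact two-sided permutation test gave p = 0.1, the smallest that 3 arrays against 3 allow. A dimmer probe of the same gene differed by -0.10 in DOPA, the other way. Stx1b2 no longer separated from 6-OHDA past the fold limit with scaling to the 75th percentile, normexp, the deposited table or the mean of all probes.

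Stx1a, the other neuronal syntaxin-1, varied by about 1 log2 unit within all groups but DOPA/HFS. Its log2 signal was 8.22, 7.23 and 7.71 in 6-OHDA, 7.34, 8.02 and 8.36 in HFS, 7.66, 7.50 and 8.54 in DOPA and 7.80, 7.62 and 7.66 in DOPA/HFS. The groups overlapped throughout. Vamp1, a synaptobrevin prominent in brainstem and spinal cord, had 8.20, 8.10 and 8.15 in 6-OHDA, 7.60, 8.23 and 8.43 in HFS, 7.54, 8.59 and 8.31 in DOPA and 8.47, 8.09 and 8.19 in DOPA/HFS. Here the 6-OHDA arrays were the tightest and lay inside the range of every treated group. Vamp1 differed by -0.00 in DOPA (95% interval -0.60 to 0.60) and 0.10 in DOPA/HFS. Snap91 had 9.83, 9.07 and 9.61 in 6-OHDA, 9.26, 9.1 and 9.85 in HFS, 9.80, 9.61 and 9.99 in DOPA and 9.81, 9.86 and 9.49 in DOPA/HFS. The 6 arrays with L-DOPA were higher by 0.31 (95% interval -0.07 to 0.69, adjusted p = 1 in limma), and the groups overlapped.

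The remaining SNARE genes serve endosomes, the Golgi and other membranes, and none had an unadjusted p under 0.05. Stx3, a syntaxin of epithelia and ribbon synapses, had the largest measured SNARE differences, of 0.43 under HFS, 0.49 under DOPA and 0.52 under DOPA/HFS. Its signals were 5.30, 4.33 and 5.72 in 6-OHDA, 5.80, 5.56 and 5.29 in HFS, 5.63, 5.25 and 5.95 in DOPA and 6.05, 5.59 and 5.26 in DOPA/HFS. It was well above background on 7 arrays only, and its lowest array was 6-OHDA replicate 2. Stx17, which acts in autophagy, was lower by 0.48 in DOPA/HFS (95% interval -1.33 to 0.36), where replicate 3 had 4.31 and the other arrays of the study 5.09 to 6.20. That value was not well above background, as the lowest signal that was so on this array was 5.0. The array is also the one with the most outlier spots.

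**Figure D2:**
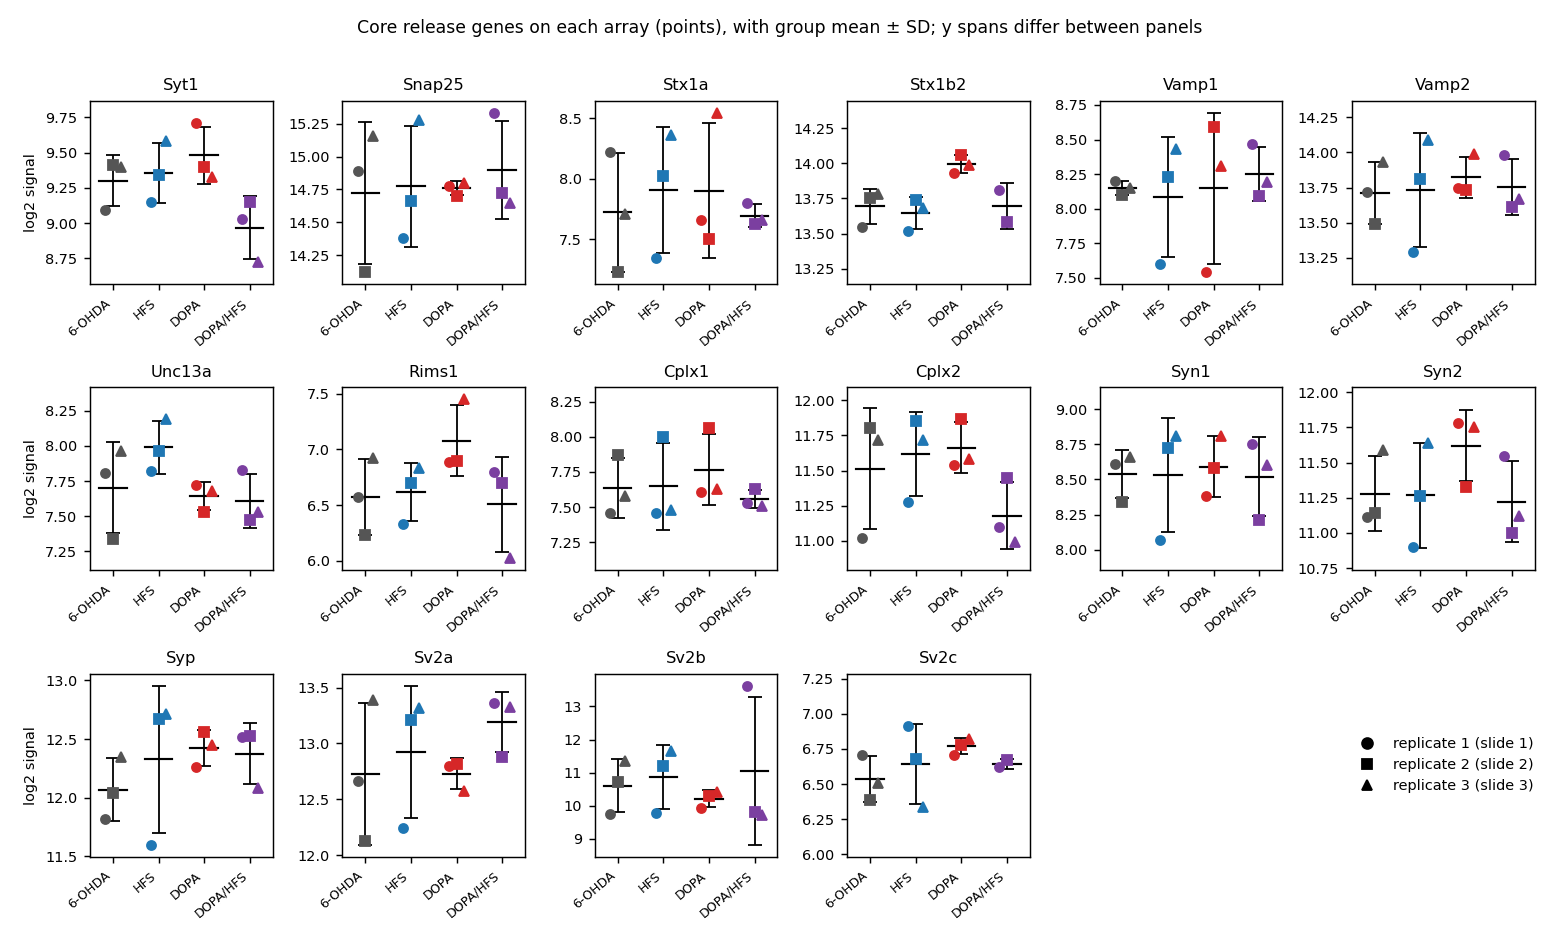
Log2 signal (y axis, a different span in each panel) of 16 of the 17 core release genes by group (x axis), with each array as a point shaped by replicate and the group mean ± SD as a bar. The treated groups overlap 6-OHDA in every panel but Sv2c, where DOPA lies just above 6-OHDA, and Stx1b2, where the DOPA arrays sit from 13.93 to 14.06 and the 6-OHDA arrays from 13.55 to 13.78.

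The synaptotagmins held every gene with an unadjusted p under 0.05. Syt2, a fast synaptotagmin of brainstem and fast-spiking interneuron terminals, was lower under L-DOPA. Its log2 signal was 9.91, 10.11 and 10.12 in 6-OHDA, 9.84, 9.92 and 9.80 in HFS, 9.52, 9.49 and 9.07 in DOPA and 10.07, 9.25 and 9.58 in DOPA/HFS. Every DOPA array lay below every 6-OHDA and HFS array, and DOPA/HFS replicate 1 lay with the 6-OHDA arrays. In DOPA the difference was -0.68 (95% interval -1.14 to -0.23, unadjusted p = 0.00659 and adjusted p = 1 in limma), a fold of 0.622. Within slides 1 to 3 it was -0.39, -0.61 and -1.05, and an exact two-sided permutation test gave p = 0.1. DOPA/HFS differed by -0.41 (95% interval -0.86 to 0.04). Over 6 arrays with L-DOPA and 6 without, the difference was -0.45 (95% interval -0.77 to -0.13), with p = 0.013 in the exact two-sided permutation test and an adjusted p of 1 in limma. Syt2 is among the genes that the study listed for L-DOPA from these same arrays, so its direction there is not independent evidence.

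Markers of the cell types that Syt2 is known from were set beside it. All 6 tested genes of the pallidum and fast-spiking list were higher in the L-DOPA comparison, by a median of 0.24, and none was called. On each array, their mean deviation from their own 12-array mean was 0.24 to 0.28 in DOPA, -0.35 to 0.03 in 6-OHDA, -0.38 to -0.11 in HFS and -0.06 to 0.22 in DOPA/HFS. Pvalb, the parvalbumin gene that defines the fast-spiking cells, differed by 0.00. Nefh, the heavy neurofilament chain, had the largest difference of 0.89 (unadjusted p = 0.00109, adjusted p = 0.654 in limma). It had 10.83, 10.51 and 10.56 in 6-OHDA, 11.45, 11.88 and 11.74 in DOPA and 10.49, 11.69 and 11.56 in DOPA/HFS. The array of the DOPA/HFS group that was high for Syt2 was thus the low one for Nefh. The part of these cells in the result for Syt2 was not tested.

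Syt12, a synaptotagmin without calcium binding that modulates spontaneous release, was the other gene that differed in the L-DOPA comparison. Its log2 signal was 9.64, 10.80 and 10.98 in 6-OHDA, 10.33, 11.04 and 10.25 in HFS, 9.82, 9.87 and 9.69 in DOPA and 10.22, 9.32 and 9.86 in DOPA/HFS. All 6 arrays with L-DOPA lay below the HFS arrays, while 6-OHDA replicate 1 lay among them. The difference over 6 against 6 arrays was -0.71 (95% interval -1.26 to -0.16, adjusted p = 1 in limma), and the exact two-sided permutation test gave p = 0.0281. Within the slides it was 0.03, -1.32 and -0.84, so that slide 1 showed none of it. Against 6-OHDA alone, DOPA differed by -0.68 (95% interval -1.45 to 0.10).

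Syt6, a synaptotagmin best known from the sperm acrosome, was higher on stimulated arrays. It had log2 signals of 7.31, 6.97 and 7.51 in 6-OHDA, 7.54, 7.72 and 7.84 in HFS, 7.18, 7.45 and 7.19 in DOPA and 7.71, 7.49 and 7.72 in DOPA/HFS. The 6 stimulated and 6 unstimulated arrays met only at 7.49 and 7.51. HFS differed from 6-OHDA by 0.44 (95% interval 0.07 to 0.81, unadjusted p = 0.0251 and adjusted p = 0.998 in limma), with p = 0.1 in the exact two-sided permutation test. In DOPA/HFS the difference was 0.37 (95% interval 0.00 to 0.74), and in DOPA 0.01 (-0.36 to 0.38). Over all 6 stimulated arrays it was 0.40 (95% interval 0.14 to 0.66, adjusted p = 0.912 in limma), with p = 0.00433 in the exact two-sided permutation test over 924 splits. The 3 slides gave 0.38, 0.40 and 0.43. The choroid plexus markers were above their mean on all 3 HFS arrays and below it on all 3 DOPA/HFS arrays, and their part in the Syt6 values was not tested. Taken from the deposited log2 table, the difference shrank to 0.18 over all stimulated arrays and to 0.28 in HFS.

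Syt5, a synaptotagmin of dense-core vesicles, was lower on stimulated arrays. It gave 16.06, 16.39 and 15.78 in 6-OHDA, 15.67, 15.71 and 15.73 in HFS, 16.08, 16.41 and 16.06 in DOPA and 16.13, 15.63 and 15.74 in DOPA/HFS. The HFS arrays lay together below all 6-OHDA arrays, but DOPA/HFS replicate 1 did not. Over 6 against 6 arrays the difference was -0.36 (95% interval -0.66 to -0.07, adjusted p = 0.912 in limma), with p = 0.0216 in the exact two-sided permutation test and -0.17, -0.73 and -0.18 within the slides. The HFS group alone differed from 6-OHDA by -0.38 (95% interval -0.79 to 0.04).

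**Figure D3:**
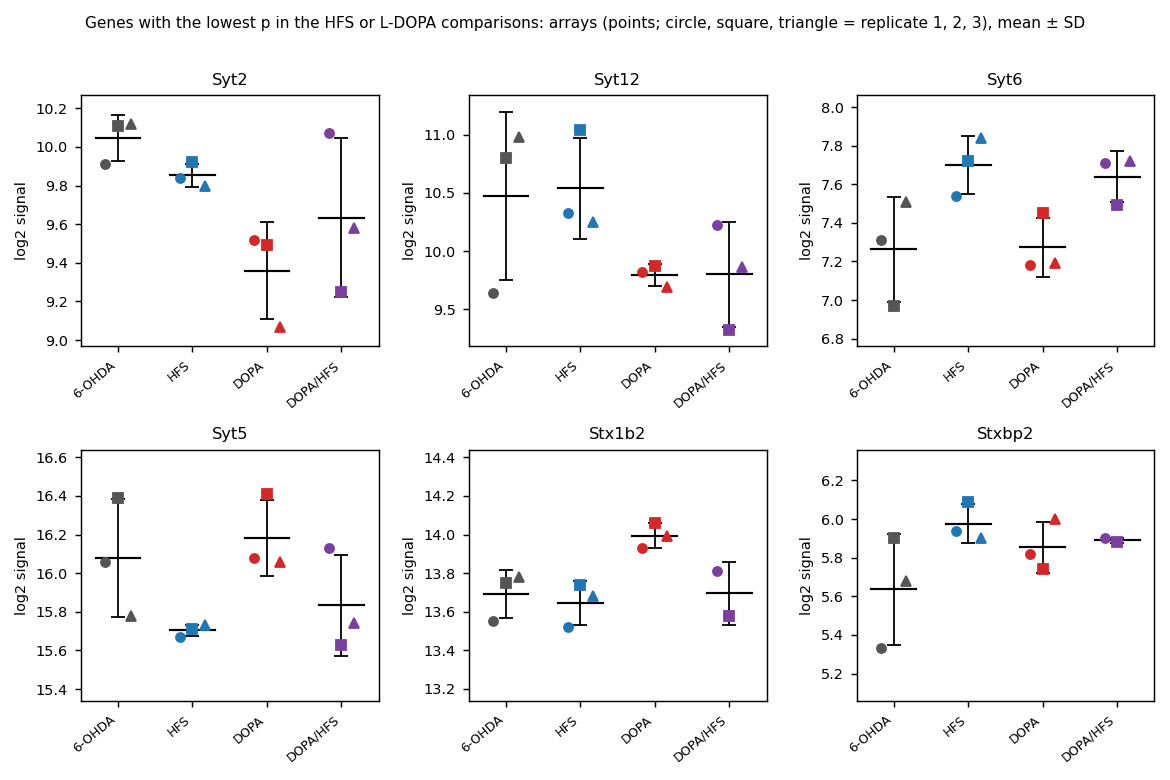
Log2 signal (y axis, a different span in each panel) on each array by group (x axis) for Syt2, Syt12, Syt6, Syt5, Stx1b2 and Stxbp2, with the group mean ± SD. DOPA arrays of Syt2 lie from 9.07 to 9.52, under the 6-OHDA arrays at 9.91 to 10.12, and stimulated arrays of Syt6 lie from 7.49 to 7.84.

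Syt1, the sensor for fast release in most forebrain neurons, was the gene with the lowest p in the interaction. Its brightest probe gave 9.09, 9.41 and 9.40 in 6-OHDA, 9.15, 9.34 and 9.58 in HFS, 9.71, 9.40 and 9.33 in DOPA and 9.03, 9.15 and 8.72 in DOPA/HFS. The DOPA/HFS arrays were low, yet reached into the range of 6-OHDA. The interaction was -0.57 (95% interval -1.12 to -0.01, unadjusted p = 0.0478 and adjusted p = 1 in limma), and DOPA/HFS differed from 6-OHDA by -0.33. The mean of all its probes gave -0.31. Among the other synaptotagmins, Syt8, Syt9 and Syt10 had the widest spread and the widest intervals, with Syt8 running from 5.21 to 7.50. Syt4, an activity-regulated synaptotagmin, stayed between 8.72 and 9.59, with differences of 0.15 in DOPA (95% interval -0.29 to 0.59) and -0.03 in DOPA/HFS.

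Among the regulators, Unc13a (Munc13-1), the main priming factor, had 7.81, 7.34 and 7.96 in 6-OHDA, 7.82, 7.96 and 8.19 in HFS, 7.72, 7.53 and 7.68 in DOPA and 7.83, 7.47 and 7.53 in DOPA/HFS. HFS arrays were the highest on slides 2 and 3, with overlap. Its difference was 0.29 in HFS (95% interval -0.12 to 0.69, adjusted p = 0.998 in limma), -0.06 in DOPA (95% interval -0.47 to 0.35) and -0.10 in DOPA/HFS.

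Rims1 (RIM1), the active zone scaffold, had 6.57, 6.23 and 6.92 in 6-OHDA, 6.33, 6.70 and 6.83 in HFS, 6.89, 6.90 and 7.45 in DOPA and 6.80, 6.70 and 6.02 in DOPA/HFS. DOPA differed by 0.51 (95% interval -0.07 to 1.08, adjusted p = 1 in limma), with p = 0.3 in the exact two-sided permutation test, since 6-OHDA replicate 3 lay among the DOPA arrays. Its relative Rims2 had 9.29, 8.98 and 9.65 in 6-OHDA, 9.35, 9.60 and 9.74 in HFS, 9.70, 9.50 and 9.54 in DOPA and 9.56, 9.32 and 9.09 in DOPA/HFS. The single treatments were higher than DOPA/HFS on slides 2 and 3, and the interaction was -0.51 (unadjusted p = 0.0919, adjusted p = 1 in limma).

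The complexin groups overlapped as well. Cplx1 had 7.46, 7.87 and 7.58 in 6-OHDA, 7.46, 8.00 and 7.48 in HFS, 7.61, 8.06 and 7.63 in DOPA and 7.53, 7.63 and 7.51 in DOPA/HFS, with replicate 2 the highest array of every group. Cplx2, the complexin of most excitatory and many projection neurons, had 11.02, 11.80 and 11.72 in 6-OHDA, 11.28, 11.85 and 11.72 in HFS, 11.54, 11.87 and 11.58 in DOPA and 11.10, 11.45 and 10.99 in DOPA/HFS. On the DOPA/HFS arrays it was lower than on the DOPA arrays of every slide, and the interaction was -0.59 (95% interval -1.32 to 0.14).

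Stxbp2, a syntaxin-binding protein of blood cells and epithelia, had 5.33, 5.90 and 5.68 in 6-OHDA, 5.94, 6.09 and 5.90 in HFS, 5.82, 5.74 and 6.00 in DOPA and 5.90 and 5.88 on the measured DOPA/HFS arrays. The HFS arrays reached down to the highest 6-OHDA array without crossing it, and the difference was 0.34 (95% interval -0.03 to 0.71, adjusted p = 0.998 in limma). It was well above background on 9 arrays. Stxbp5l (tomosyn-2), which withholds SNARE proteins from fusion, had 7.21, 7.26 and 7.41 in 6-OHDA, 7.42, 7.38 and 7.03 in HFS, 7.58, 7.28 and 7.49 in DOPA and 6.97, 7.19 and 6.96 in DOPA/HFS. DOPA/HFS arrays were all below the 6-OHDA arrays, with a log2 difference of -0.25 (95% interval -0.59 to 0.09), which is under the fold limit used for groups that do not overlap.

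Of the vesicle proteins, Syn1 (synapsin I) had 8.61, 8.34 and 8.66 in 6-OHDA, 8.07, 8.72 and 8.81 in HFS, 8.38, 8.58 and 8.81 in DOPA and 8.75, 8.21 and 8.60 in DOPA/HFS. With differences of -0.00, 0.05 and -0.02, it was the gene of the core with the least movement in the 3 comparisons by F test (unadjusted p = 0.991). Syn2 (synapsin II) had 11.11, 11.14 and 11.59 in 6-OHDA, 10.90, 11.26 and 11.64 in HFS, 11.78, 11.33 and 11.75 in DOPA and 11.55, 11 and 11.12 in DOPA/HFS. Its DOPA arrays were higher by 0.34 (95% interval -0.17 to 0.86), with overlap.

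Syp, widely used as a marker of synapse number, had 11.82, 12.04 and 12.35 in 6-OHDA, 11.60, 12.67 and 12.71 in HFS, 12.26, 12.56 and 12.45 in DOPA and 12.52, 12.53 and 12.08 in DOPA/HFS. All 3 treated groups had the higher mean, by 0.26, 0.35 and 0.31, each with a 95% interval that included 0 (-0.36 to 0.88, -0.26 to 0.97 and -0.31 to 0.93). Sv2a, the binding site of levetiracetam, had 12.66, 12.13 and 13.39 in 6-OHDA, 12.24, 13.21 and 13.32 in HFS, 12.80, 12.82 and 12.57 in DOPA and 13.36, 12.88 and 13.33 in DOPA/HFS. DOPA/HFS was higher by 0.46 (95% interval -0.28 to 1.21) and overlapped 6-OHDA.

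Sv2c, the SV2 form of basal ganglia neurons, had 6.71, 6.39 and 6.51 in 6-OHDA, 6.91, 6.68 and 6.34 in HFS, 6.71, 6.78 and 6.82 in DOPA and 6.62 and 6.67 on the measured DOPA/HFS arrays. The DOPA arrays lay just above the 6-OHDA arrays, with a difference of 0.24 (95% interval -0.13 to 0.61) that was under the fold limit. Sv2b was the least certain gene. It had 9.76, 10.71 and 11.35 in 6-OHDA, 9.78, 11.19 and 11.64 in HFS, 9.93, 10.31 and 10.42 in DOPA and 13.63, 9.82 and 9.72 in DOPA/HFS. A single array, DOPA/HFS replicate 1, stood above all others, and the DOPA/HFS difference of 0.45 had a 95% interval from -1.54 to 2.44. A second probe of Sv2b on that array read 9.09, within its range of 8.32 to 9.21 over all arrays.

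Groups that did not overlap with 6-OHDA were also counted, with the same fold limits. In HFS they were Stxbp2 and Syt6, both higher, and Syt5, lower, which is 3 of 58 genes (5.17%) against 3.2% of all genes. In DOPA they were Stx1b2, higher, and Syt2, lower, which is 2 of 58 (3.45%) against 3.88%. In DOPA/HFS there were 0 of the 54 genes with a value on every array compared, against 2.79%.

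Arrays of the same group could differ in most core genes together. Core release genes were mostly under their own 12-array mean on HFS replicate 1, where 2 of 17 were above it with a median deviation of -0.45, and mostly over it on HFS replicate 3, with 14 of 17 and a median of 0.30. Within the 6-OHDA group, replicate 2 had 4 of 17 above (median -0.26) and replicate 3 had 13 of 17 (median 0.12). DOPA/HFS replicate 1 had 12 of 17 above, and replicates 2 and 3 had 3 of 17 and 3 of 15. The DOPA arrays were the most alike, with 7, 9 and 13 of 17 above and medians of -0.01, 0.04 and 0.15. Of all genes tested, 53.9% and 49.8% were above their own mean on HFS replicates 1 and 3. The shares were 49.1% and 51.1% on 6-OHDA replicates 2 and 3, and 53.2%, 48.4% and 49.2% in DOPA. In DOPA/HFS they were 51.0%, 51.9% and 40.1%, so on replicate 3 all genes were low too.

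Markers of the listed cell types were set beside these deviations. Projection neuron markers deviated by -0.16 on HFS replicate 1 and 0.16 on HFS replicate 3, and by -0.15 and 0.26 on 6-OHDA replicates 2 and 3. For the 7 tested oligodendrocyte markers the same arrays had -0.08, 0.39, -0.30 and 0.34, and DOPA/HFS replicate 1 had 0.24 against -0.15 and -0.13 on the other DOPA/HFS arrays. On HFS replicates 1 and 3 and 6-OHDA replicates 2 and 3, the 4 tested cortex markers had -0.67, 0.55, -0.6 and -0.26. In the same order, microglia markers had -0.19, 0.07, -0.51 and 0.01, and pallidum and fast-spiking markers -0.38, -0.11, -0.35 and -0.12. Endothelium markers had -0.04, 0.01, -0.39 and -0.03, astrocyte markers 0.01, -0.04, -0.1 and -0.05, and choroid plexus markers 3.95, 3.32, -1.13 and -1.23. The part of cell content in the release genes' array differences was not tested.

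**Figure D4:**
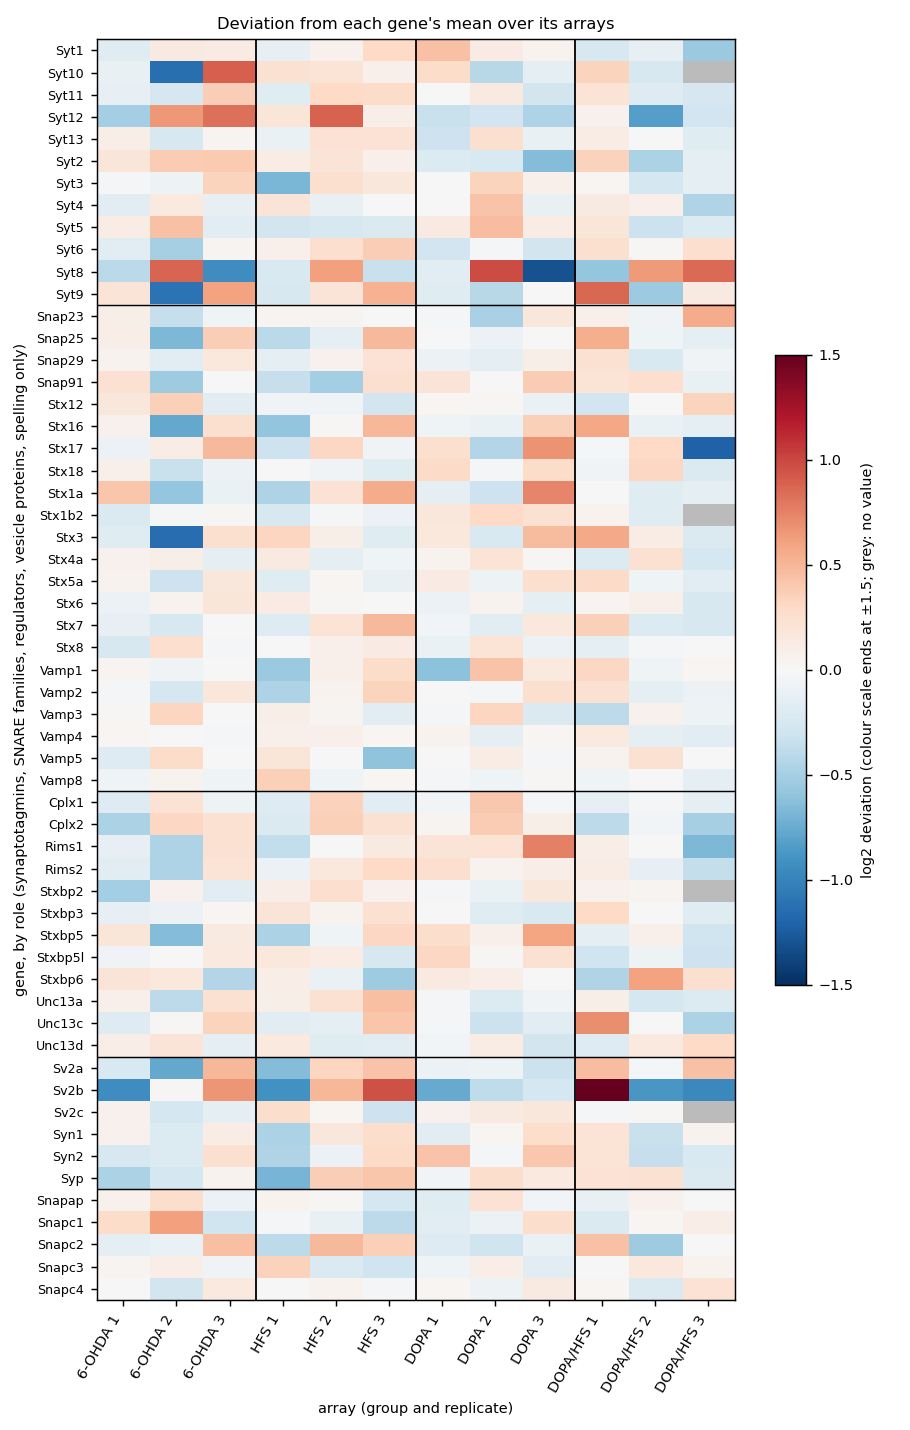
Deviation of 57 of the 58 tested genes (rows, by role) from its mean over the 12 arrays (columns, by group and replicate), in log2 units, with red above, blue below and grey for no value. HFS replicate 1 is blue over most core genes where HFS replicate 3 is red, and the darkest cell is Sv2b on DOPA/HFS replicate 1.

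Several probes of the same gene often differed in sign at this size of difference. For the 12 genes with more than 1 probe past the filter, the brightest probe and the other probes had the same direction in 3 genes under HFS, 8 under DOPA and 5 under DOPA/HFS, and opposite directions in 9, 4 and 7. Signs were counted also where differences were near 0, such as 0.06, -0.05 and 0.01 for the Vamp4 probes in HFS. Such signs say little about whether probes conflict. The median gap between probes was 0.20, 0.13 and 0.16 log2 units, close to the median standard error. Syt1 had the widest gap in DOPA/HFS, with differences of -0.33, 0.30 and -0.56 for its 3 probes. The probe at -0.56 is annotated to a different sequence record from the others. In DOPA the widest gap was in Stx7, an endosomal syntaxin, where the brightest probe differed by 0.10 and the other by 0.80. For Syt2, Syt5, Syt6 and Syt12 the array holds a single probe.

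**Figure D5:**
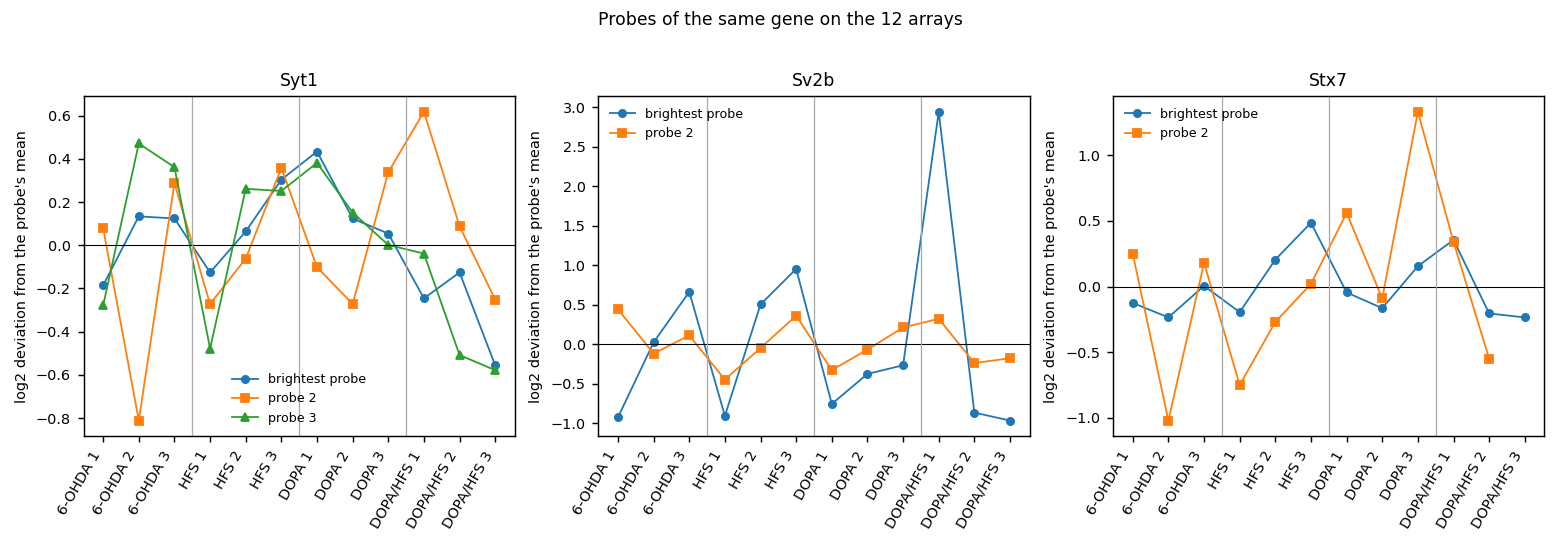
Deviation of each probe of Syt1, Sv2b and Stx7 from its own mean (y axis, log2 units) on the 12 arrays (x axis). The second Sv2b probe stays near 0 on DOPA/HFS replicate 1 where the brightest probe is at its highest, and the Syt1 probes part in DOPA/HFS.

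Other genes of vesicle release were read from 7 lists, covering the fusion ATPase and its adaptors, the Rab3 cycle, the active zone scaffold, presynaptic calcium channels, vesicle recycling, vesicular transmitter transporters and other vesicle membrane proteins. Of 96 listed genes 88 were tested, and none was called in any comparison. At an unadjusted p under 0.05, 2 genes stood out under HFS (2.27%), 2 under DOPA and 1 under DOPA/HFS (1.14%), near the background shares given above. In HFS they were Nrxn2 (neurexin-2), lower by a log2 difference of -0.30, and Cacnb2, a calcium channel subunit, with -0.36. In DOPA they were Scamp5, a vesicle membrane protein, with 0.40, and Slc18a2, a vesicular monoamine transporter, with -1.03. Scamp1 was the gene in DOPA/HFS, with -0.50. Its log2 signals were 12.06, 12.31 and 11.63 in 6-OHDA and 11.60, 11.63 and 11.26 in DOPA/HFS, so that DOPA/HFS lay at or below the lowest 6-OHDA array. Cacnb2 and Slc18a2 are also on the study's own lists from these arrays and are not independent of them.

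The 5 genes matched by spelling only had no unadjusted p under 0.05 and medians of -0.09, -0.08 and -0.09 in HFS, DOPA and DOPA/HFS. Snapc1 was the largest, with a log2 difference of -0.37 in HFS, from 8.27, 8.61 and 7.69 in 6-OHDA to 7.98, 7.88 and 7.60, with overlap.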

How the data were processed

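RNA of 12 rats was hybridised with 1 Cy3 dye to 12 Agilent rat arrays, 1 per rat, and groups and replicate numbers were taken from the sample labels. The authors deposited the scanner output, whose intensity values had been background-corrected by Agilent Feature Extraction 9.1 per the labels, without scaling between arrays. They also deposited a log2 table, quantile normalized, which was used as an alternative. The genome build is not given in the sources used here.

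Control spots and spots marked as outliers were left out. The log2 intensities were brought to the same quantiles on every array, and spots of a probe were averaged. A probe was kept if it was well above background on 0.4 of the arrays or more, and the brightest probe by mean signal stood for a gene, which gave 20375 genes. Levels of different probes were not compared. All 12 arrays entered a single model in limma 3.58.1 (lmFit and eBayes) under R 4.3.3, with Benjamini-Hochberg adjustment over all genes tested. Single values were tested by exact two-sided permutation (scipy 1.17.1), whose smallest p is 0.1 for 3 against 3 arrays and 0.00216 for 6 against 6. Nothing was counted in reads, and the number of arrays limits the precision.

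The genes, the 7 pathway lists and 8 cell type lists were chosen with earlier results of these data known. Values per array are given for 16 of the 17 core release genes, for Syt2 and for the 3 genes with the lowest p in each comparison, and other genes were named after their values were seen. For 1 core gene, which is counted in the totals, no value is reported here. Of the 67 genes, 59 had an accession in the gene table of GRCr8. Alternatives were scaling to the 75th percentile, the deposited log2 table, normexp with an offset of 50, 2 other filters, the mean of all probes, the replicate number as a block, only the arrays compared, outlier spots kept, an adjusted p under 0.05, no fold limit, and each array left out in turn.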

Additional observations from a re-analysis of the deposited data

Results flagged for a closer look

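The 6 probes below did not pass the filter on dim probes and entered no comparison. Each was well above background on at least 1 treated array and on no 6-OHDA array. Treated arrays outnumber the 6-OHDA arrays, and the share of all probes with this pattern was not counted. The noise limit also differed between arrays. The lowest log2 signal well above background was 4.61, 5.12 and 5.3 on the 6-OHDA arrays and 4.45, 4.03 and 4.12 on the HFS arrays. It was 4.73, 4.71 and 5.71 in DOPA and 4.22, 4.22 and 5.0 in DOPA/HFS. The highest 6-OHDA signal is therefore given beside each probe. Syt7, the sensor of slow and asynchronous release, was well above background on HFS replicates 2 and 3, with a log2 signal of up to 4.64, while a 6-OHDA array that did not pass its own limit read 4.92. Rims4, a short RIM protein, reached 5.47 on HFS replicate 3 and was also well above background on HFS replicate 2 and DOPA/HFS replicate 1, against at most 4.88 in 6-OHDA. Stxbp4, a syntaxin-4 partner, reached 5.41 among HFS replicates 1 and 3 and DOPA/HFS replicate 1, against 4.73. Syn3 (synapsin III) reached 4.90 on DOPA/HFS replicate 1, against 4.60. Unc13b (Munc13-2) reached 4.43 on HFS replicate 3, under the highest 6-OHDA reading of 4.70.

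The dimmest probe of Vamp2 read 5.61 on DOPA/HFS replicate 3, where it was well above background, and 3.54 and 3.42 on the other DOPA/HFS arrays. The other 9 arrays read 2.58 to 2.78. Both brighter Vamp2 probes showed no such rise on that array, where they read 13.67 and 13.43. The array is the one with 4175 outlier spots. The cause was not tested.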

How the results depend on the processing

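No release gene was called under any alternative in any comparison, also at an adjusted p under 0.05 and without the fold limit. The lowest adjusted p of a release gene under any of them was 0.319, for Syt2 in the L-DOPA comparison without DOPA/HFS replicate 1. Replicate numbers mark the slide. Deviations from the group means correlated at -0.277 to 0.473 (median 0.114) over 18 same-numbered pairs, of which 10 exceeded 0.1, against a median of -0.0694 over 36 other pairs, and 5 of 12 arrays correlated best with their own number. Since not every pair exceeded 0.1, the numbers were not taken to pair the arrays. This does not show that the slide had no effect. With the replicate number as a block, 0 release genes were called. At an unadjusted p under 0.05 in limma, the block moved the count over all 20375 genes from 562 to 1034 in DOPA/HFS. In the HFS comparison it moved from 888 to 1410. Of the 58 release genes, the counts were 1 and 0 in DOPA/HFS, and 2 both times in the HFS comparison.

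The count of release genes without overlap with 6-OHDA in HFS was 3, and it was 1 (Syt6, 1.72%) with scaling to the 75th percentile, with normexp and with the deposited table, against 3.3%, 1.75% and 1.82% of all genes. In DOPA it was 2, and 1 (Syt2, 1.72%) with normexp and with the mean of all probes, against 2.44% and 3.83%. In DOPA/HFS it was 0, and 1 with outlier spots kept (Stxbp5l, 1.72%), against 3.95%. As single arrays were left out, these counts ran from 2 to 10 in HFS, 2 to 8 in DOPA and 0 to 5 in DOPA/HFS. Groups of 2 arrays separate more easily by construction. The highest counts came without 6-OHDA replicate 3 in HFS (17.2%, against 18.3% of all genes) and without 6-OHDA replicate 1 in DOPA (13.8%, against 9.65%) and DOPA/HFS (9.26%, against 8.42%). Without 6-OHDA replicate 3, 4 of the 58 release genes had an unadjusted p under 0.05 in HFS, against 1854 of all 20375 genes.

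Syt2 in DOPA had an unadjusted p under 0.05 in 21 of 21 alternatives, with log2 differences of -0.77 to -0.54. In the L-DOPA comparison Syt2 (-0.56 to -0.36) and Syt12 (-0.92 to -0.58) had it in 20 of 20. Syt5 in the HFS comparison had it in 18 of 20 (-0.53 to -0.29). Syt6 had it in 18 of 20 in the HFS comparison (0.18 to 0.46) and in 14 of 21 in HFS (0.27 to 0.56), but in 7 of 21 in DOPA/HFS (0.08 to 0.50). The interaction of Syt1 had it in 8 of 20 (-0.76 to -0.31). All of these genes were picked for a low p in the same arrays, and the alternatives share most of their values. Leaving out an HFS or DOPA/HFS array, for instance, cannot move the Syt2 difference in DOPA and alters only the estimated spread. As Syt2 has a single probe, the mean of all probes and the other filters reuse its values. These counts are therefore not independent support.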
